A study of Homo sapiens with 2 samples.

Results

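The genes described are 7 that encode peptides made by the stomach and intestine, GAST, MLN, SCT, GHRL, CCK, GUCA2A and GUCA2B, taken by symbol from the 33694 genes counted in stem cell-derived islet clusters. They were selected with their levels in these libraries known, so their levels are a description and carry no test. All 7 were found, each as 1 gene. Each had UMIs (unique molecular identifiers, 1 for each RNA molecule captured and counted), from 424 for CCK to 3511828 for GAST.

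Gut peptide hormones are made by enteroendocrine cells, single hormone cells scattered through the lining of the gut that share many transcription factors with the islet. GAST encodes gastrin, which stimulates acid secretion by the stomach. GHRL encodes ghrelin, an appetite hormone of the stomach and of the epsilon cells of the fetal islet. MLN encodes motilin, which drives contractions of the empty gut, SCT encodes secretin, which stimulates bicarbonate secretion by the pancreatic duct, and CCK encodes cholecystokinin, which stimulates enzyme secretion by the pancreas and emptying of the gallbladder. GUCA2A and GUCA2B encode guanylin and uroguanylin, peptides of the intestinal lining that act on the receptor guanylate cyclase C, encoded by GUCY2C, to move salt and water into the gut. In the developing pancreas GAST is transiently made by endocrine cells, and in the adult islet it is normally silent.

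The cells were eBCs, clusters made by sorting cells bright for an insulin reporter from differentiating spheres and letting them reaggregate. They came from iSOX9KO, made in MEL-1, a human embryonic stem cell line that carries GFP in the INS gene. In iSOX9KO doxycycline (DOX) switches on Cas9, which with guides against SOX9 is meant to delete that gene, and both samples carried this system. The study asked what loss of SOX9 does to human beta cells, and compared clusters left without DOX (no DOX) with clusters given DOX at 2 ug/ml from day 12. Each condition was 1 library of live sorted cells on the 10x Genomics platform, so no difference between conditions has a replicate check and none was tested, and all intervals given are 95% intervals that cover counting error only.

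The targeted gene did not follow the labels. SOX9 had 2.998 CPM (UMIs per 1000000 UMIs of the same cells) in the library labelled no DOX. In the library labelled DOX it had 3.78 CPM, a log2 ratio of 0.33 (0.21 to 0.46). In duct-like cells, where most of its UMIs lay, SOX9 had 253 and 283 CPM, a log2 ratio of 0.16 (0.01 to 0.31). The counts do not tell an edited SOX9 RNA from an intact one. For this reason each library is called by what its label says, the no DOX library and the DOX library, and every ratio is that of the DOX library over the no DOX library. Whether the labels are exchanged was not tested, and if they were, every direction between the libraries would be the opposite.

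The no DOX library kept 21805 cells with a median of 13958 UMIs, and the DOX library kept 23116 with a median of 12667 UMIs. Clustering without the 7 genes gave 6 named classes: 331 duct-like cells, 1013 proliferating progenitor-like cells, 4567 delta-like cells, 9168 alpha-like cells, 11062 beta cell progenitor-like cells (called progenitor-like) and 16439 beta-like cells. The no DOX library had 6779 beta-like, 5049 alpha-like and 2636 delta-like cells and the DOX library 9660, 4119 and 1931. A further 2341 cells, with a median of 70.7% mitochondrial UMIs, stayed unnamed. The markers that named the classes were chosen by the study on these same cells, and beta-like cells were led by metallothionein genes with IAPP. There were 369 barcodes found in both libraries, and leaving them out moved the log2 ratio over all cells of none of the 7 genes beyond its counting interval except that of GAST, from -1.26 to -1.28.

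On the GRCh38 build the 7 genes lie on 5 chromosomes. GAST is at chr17:41712331-41715969, MLN at chr6:33794673-33804003, SCT at chr11:626309-627181, GHRL at chr3:10285666-10292947 and CCK at chr3:42257825-42266185. GUCA2B, at chr1:42153410-42155820 on the forward strand, and GUCA2A, at chr1:42162690-42164745 on the reverse strand, point toward each other with 6869 bases between their ends. GHRL overlaps genes on the other strand that were also counted, among them its antisense RNA GHRLOS with 162 UMIs, and CCK overlaps an unnamed gene on the other strand. MLN also overlaps an unnamed gene on the other strand, which was not among the genes counted. Whether the counting used the strand of the reads is not given in the sources used here. Reads of GHRL, CCK and MLN therefore cannot be told apart from those of these partners.

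RefSeq promoter windows (GRCh38.p14) matched 6 of the 7 genes, SCT being the exception. The 250 bases before the transcription start are shown for GAST, GUCA2A and GUCA2B. GUCA2A and GUCA2B are neighbours that were both highest in the same small class. Of the remaining genes among the 7, GAST had the largest ratio between its highest class and the others. The windows are chr17:41712081-41712330 for GAST, chr1:42164746-42164995 on the reverse strand for GUCA2A and chr1:42153160-42153409 for GUCA2B, each written 5′ to 3′ with the motif matches described next in capitals.
GAST: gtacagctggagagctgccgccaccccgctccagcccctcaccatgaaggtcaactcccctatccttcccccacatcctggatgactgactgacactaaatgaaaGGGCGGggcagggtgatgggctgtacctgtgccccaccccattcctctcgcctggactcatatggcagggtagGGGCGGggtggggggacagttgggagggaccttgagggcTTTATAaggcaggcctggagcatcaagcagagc
GUCA2A: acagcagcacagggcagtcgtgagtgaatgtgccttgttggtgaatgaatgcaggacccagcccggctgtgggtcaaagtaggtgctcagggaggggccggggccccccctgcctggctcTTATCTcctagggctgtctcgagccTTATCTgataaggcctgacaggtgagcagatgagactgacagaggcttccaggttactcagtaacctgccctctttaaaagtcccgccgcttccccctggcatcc
GUCA2B: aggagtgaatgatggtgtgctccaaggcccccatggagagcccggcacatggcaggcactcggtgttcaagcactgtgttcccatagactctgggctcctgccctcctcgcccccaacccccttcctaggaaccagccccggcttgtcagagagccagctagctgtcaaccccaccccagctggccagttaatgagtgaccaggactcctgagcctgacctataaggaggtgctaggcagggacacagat

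The windows were searched on both strands for 7 motifs. GAST held the TATA box letters, TATAAA, on the reverse strand at -33, counted from the transcription start, and 10.7% of 35116 human promoter windows of this length hold them. It also held the GC box letters, GGGCGG, at -145 and -72, which occur in 42.6% of the windows. GUCA2A held a letter run that fits GATA factors, AGATAA, on the reverse strand at -130 and -105, and 9.17% of all windows hold it. GUCA2B held none of these. The E-box letters, CANNTG, had 3 matches in the GAST window and 2 in that of each guanylin gene. They are held by 61.8% of all windows and are not in capitals above. Homeobox letters (TAATTA, in 4.35% of all windows), forkhead letters (TGTTTAC, in 2.98%) and the cAMP response letters (TGACGTCA, in 1.65%) matched in no window of the genes. Of the windows not shown, MLN and GHRL held only E-box letters. RefSeq gives CCK a pair of windows. In 1 of them the GC box was at -69 on the reverse strand, beside 2 matches of the E-box letters. The other held the TATA box letters at -213 and -211, on opposite strands and overlapping. A match is a run of letters and says nothing of what binds there.

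Across the classes the 7 genes fell into distinct places. GAST, GHRL and CCK had their highest level in alpha-like cells, MLN and SCT in beta-like cells, and GUCA2A and GUCA2B in duct-like cells. Of the 6 genes with at least 5 CPM in a class, 4 reached at least 4 times the median of the other classes in their highest class. Such a pattern is common here, since 17.0% of the 12515 genes at that level showed it, and the genes were selected with their levels known, so nothing is read from the count.

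**Figure D1:**
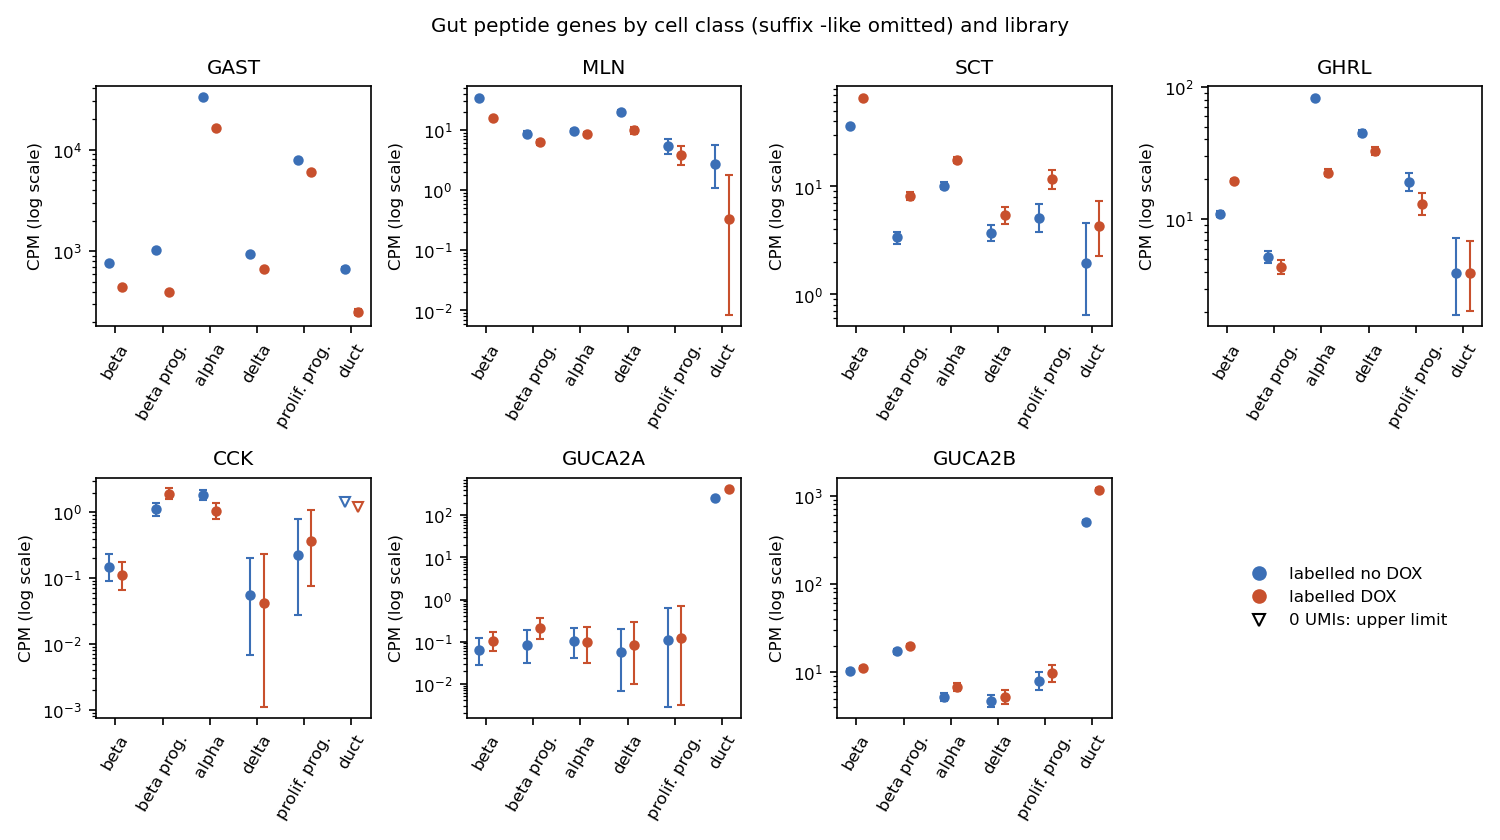
Level of each gene in CPM (vertical axis, log scale) in the 6 named cell classes, for the library labelled no DOX (blue) and the library labelled DOX (red), with 95% counting intervals as bars and open triangles as the upper limit where a class had 0 UMIs. GAST stands out in alpha-like cells (32934 and 16363 CPM) and GUCA2A and GUCA2B stand out in duct-like cells.

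GAST was highest in alpha-like cells. They held 32934 CPM of it in the no DOX library and 16363 CPM in the DOX library, and 87.6% of the GAST UMIs of named classes over both libraries. The class with the next level was the proliferating progenitor-like one, with 7890 and 5973 CPM. A minority of its cells carried this level, as 94 of 507 and 79 of 506 cells had GAST at 1% of their UMIs or more, and its median cell had 824 and 620 CPM. The remaining classes lay between 671 and 1017 CPM in the no DOX library and between 251 and 662 CPM in the DOX library, so the classes kept the same highest and second place in both libraries.

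Free RNA in the droplets can add to such levels. Duct-like cells, which held the guanylins but are not a known source of gastrin, insulin or glucagon, had GAST at 8.44% of the level over all cells in the no DOX library and at 7.595% in the DOX library. INS stood there at 13.2% and 10.4% of its own level and GCG at 12.3% and 7.38%, so GAST in duct-like cells was of the same order as the hormones of other cells. When all cells were thinned to the same 5000 UMIs, a GAST UMI was found in 78.1% of duct-like cells (73.2 to 82.5) and in 78.7% of beta-like cells (78.1 to 79.3). Unthinned, these shares were 95.5% and 96.4%, at median depths of 14505 and 15890 UMIs. The interval of the duct-like share includes the beta-like one, so the beta-like share is not read as expression. The levels of beta-like and duct-like cells were 763 and 671 CPM in the no DOX library and 444 and 251 CPM in the DOX library, and 23.2% and 14.5% of their cells had at least 10 GAST UMIs. The part of free RNA in the beta-like level was not tested. In alpha-like cells 98.5% (98.2 to 98.7, unthinned 99.3%) had a GAST UMI. The thinning left out 2544 cells of the no DOX library and 2223 of the DOX library, which were shallower.

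GAST was spread unevenly within the alpha-like class. A single cell had a median of 6042 CPM in the no DOX library and 3731 CPM in the DOX library, and the 90th percentile of cells was at 80761 and 35164 CPM. In the beta-like class the medians were 479 and 244 CPM. Among the 8 cells with the most GAST UMIs, all alpha-like, GAST took up to 51.0% of all UMIs of the cell, 9932 of 19491.

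Within the alpha-like class, GAST and GCG, the gene of glucagon, were each abundant in part of the cells, and few cells had both at a high level. When a cell was called rich in a gene that made up at least 1% of its UMIs, a limit chosen after the values were seen, 2702 cells were rich in GAST only, 1819 in GCG only, 452 in both and 4195 in neither. The levels of GAST and GCG in these groups follow from the limit and are no result. In the no DOX library 39.4% of alpha-like cells reached the limit for GAST, 22.4% for GCG and 5.47% for both. In the DOX library these shares were 28.3%, 27.6% and 4.27%. Over single cells thinned to 5000 UMIs the Spearman correlation of GAST with GCG was -0.21 in the no DOX library (4438 cells) and -0.18 in the DOX library (3628 cells), a description over cells that share a library. The correlation of GAST with INS in the same cells was -0.26 and -0.15, so the weak negative values were not particular to GCG. Every thinned cell had the same 5000 UMIs, so a cell with much GAST had fewer UMIs left for GCG and INS. The part of this in the negative values was not tested.

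**Figure D2:**
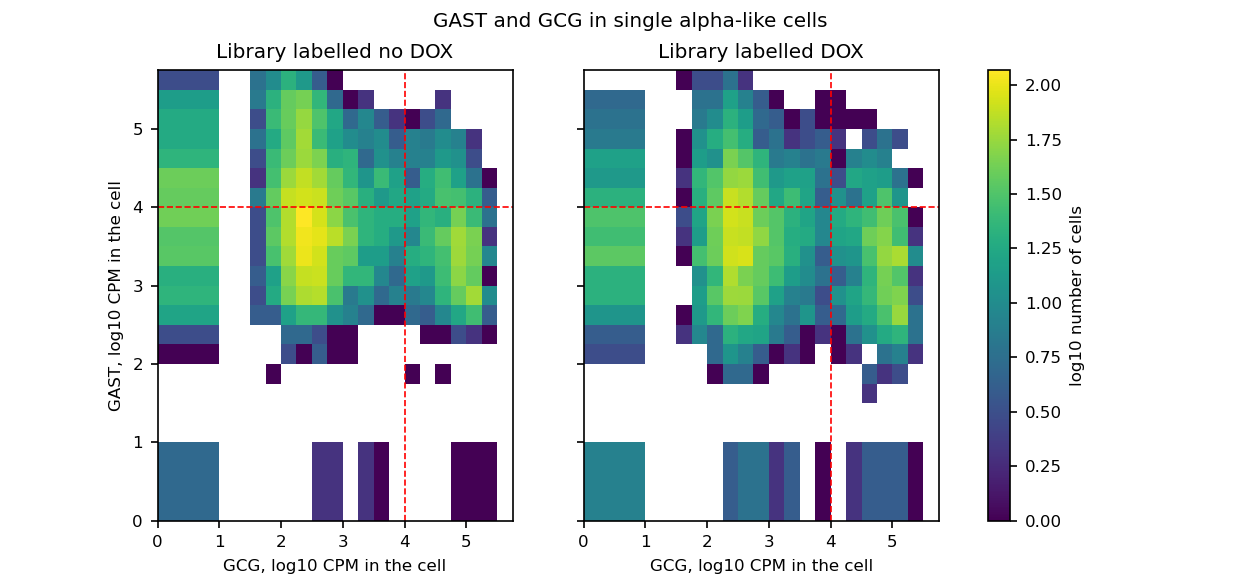
GCG (horizontal axis) against GAST (vertical axis) in single alpha-like cells, each in log10 CPM of the cell, with colour for the log10 number of cells in each field, 1 panel per library, cells without a UMI drawn in the lowest band and dashed red lines at 1% of a cell's UMIs. Cells high in GCG span a wide range of GAST, and 452 of 9168 cells lie above both lines.

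The groups differed in share between the libraries. Cells rich in GAST only made up 33.9% of alpha-like cells in the no DOX library (32.6 to 35.3) and 24.0% in the DOX library (22.7 to 25.3). Cells rich in GCG only made up 17.0% (15.9 to 18.0) and 23.4% (22.1 to 24.7).

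The groups had similar levels of PYY, peptide YY of gut and islet, with 2599 CPM in cells rich in GAST only, 2858 CPM in cells rich in GCG only and 3208 CPM in cells rich in neither. They parted at IRX1, an alpha cell transcription factor, with 9.98 CPM in cells rich in GAST only, 49.1 CPM in cells rich in GCG only and 18.7 CPM in cells rich in neither. IRX2, in the same order, was 62.0, 107 and 93.9 CPM, and PPY, pancreatic polypeptide, was 82.5, 468 and 287 CPM. PPY differed between the libraries, with 53.6 CPM in the no DOX and 138 CPM in the DOX library in cells rich in GAST only, and 308 and 617 CPM in cells rich in GCG only. GIP, the incretin of intestinal K cells, was 65.3, 21.7 and 66.9 CPM, so cells rich in GAST only and cells rich in neither had about the same level. KRT20, a keratin of mature gut epithelium, was 23.0, 0.08 and 0.16 CPM, and in cells rich in GAST only it was 30.8 CPM in the no DOX library and 8.02 CPM in the DOX library. INS was 123543, 112608 and 159857 CPM.

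Genes ranked by the ratio of cells rich in GAST only over cells rich in GCG only, again chosen after their values were seen, were led by FAM159B (26.2 and 0.60 CPM), NKX6-3 (23.4 and 1.19 CPM), LINC00348 (22.5 and 1.20 CPM), TNP1 (23.1 and 2.40 CPM) and CALB2 (511 and 77.4 CPM), each given as the mean of the libraries. NKX6-3 is a homeobox factor of gastrin cells of the stomach and was among the markers used here for delta-like cells. In the opposite direction the leading genes were UCN (136 and 16.2 CPM), which encodes urocortin, and PPY.

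Over the finer clusters of each library, 22 points in all that share libraries and cells, genes most like GAST by Pearson correlation of log2(CPM + 1) included SERTM1 (0.97) and GCG (0.95), which are markers of the alpha-like class.

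GHRL had its highest level in alpha-like cells in the no DOX library, 81.5 CPM, followed by 44.8 CPM in delta-like cells. That order rested on a few cells, since without cells of 10 or more GHRL UMIs the levels were 26.9 CPM in alpha-like and 30.6 CPM in delta-like cells. In the DOX library the order was reversed, with 32.7 CPM in delta-like and 22.5 CPM in alpha-like cells. Beta-like cells had 11.1 and 19.6 CPM and duct-like cells had 3.95 and 3.93 CPM. After thinning, 11.3% of alpha-like (10.6 to 12.0, unthinned 23.5%) and 11.5% of delta-like cells (10.6 to 12.5, unthinned 23.2%) had a GHRL UMI, against 0.617% of duct-like cells (0.0748 to 2.21, unthinned 6.65%). Median depths were 12851, 12747 and 14505 UMIs.

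A few cells carried much of the GHRL. A single alpha-like cell of the no DOX library had 2153 GHRL UMIs, 13.96% of its RNA count, a beta-like cell of the DOX library had 1532, and another alpha-like cell of the no DOX library had 1169. These 3 cells held 33.6% of all GHRL UMIs, and the next cell had 83. There were 55 cells with at least 10 GHRL UMIs, 28 of them delta-like, 18 alpha-like and 5 beta-like. Of these 55, 46 were in the no DOX library, among them all 18 alpha-like cells.

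The genes highest in those 55 cells over other cells of the same class and library were not hormones. CELA3A (198 and 0.97 CPM), CELA3B (117 and 0.76 CPM) and PRSS2 (46.6 and 1.79 CPM) encode digestive enzymes of acinar cells, ANXA8L1 (20.9 and 0.22 CPM) an annexin, and AFP (282 and 15.4 CPM) the fetal liver protein alpha-fetoprotein. Of a list of 6 epsilon cell genes apart from GHRL, 5 were at least 2 times higher in those cells, with ACSL1 at 80.6 and 14.7 CPM, although the summed level of the list was 491 and 441 CPM. Of 5 liver genes, 4 were at least 2 times higher, summing to 4329 and 271 CPM, and of 5 acinar genes 2 were, summing to 204 and 3.33 CPM, with CTRB1 and CEL at 0. The part of such cells in the GHRL level was not tested. MBOAT4, the enzyme that acylates ghrelin, had only 62 UMIs over all cells. It was 1.24 CPM in the 55 cells and 0.23 CPM in the others, and at such low counts no difference is read.

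By likeness across the finer clusters, GHRL went with SEC11C (0.85), ACSS3 (0.83) and CRELD2 (0.81). SEC11C and CRELD2 serve the endoplasmic reticulum, the first as a subunit of the signal peptidase.

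Motilin RNA was highest in beta-like cells among the 6 named classes. MLN had 34.7 CPM in beta-like cells of the no DOX library and 15.9 CPM in those of the DOX library, followed by 20.2 and 9.91 CPM in delta-like cells. At the finer resolution a cluster of 3052 cells led by MT1B, a metallothionein, had 106 and 59.9 CPM, against 6.82 and 4.64 CPM in the cluster of 8879 beta-like cells led by MAFA, a transcription factor of mature beta cells. The MT1B-led cluster did not meet the rule for a class name and stayed unnamed at this resolution.

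In thinned cells, 5.27% of beta-like (4.93 to 5.63, unthinned 12.2%) and 0.926% of duct-like cells (0.191 to 2.68, unthinned 2.42%) had an MLN UMI. There were 153 cells with at least 10 MLN UMIs, 119 of them beta-like, 18 alpha-like, 15 delta-like and 1 progenitor-like, with up to 221 UMIs. They held 39.7% of all MLN UMIs and were deep, with a median of 27925 UMIs. Of these, 100 were in the no DOX library and 53 in the DOX library.

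Cells with at least 10 MLN UMIs carried liver-type RNA. Over other cells of the same class and library they had APOA2, an apolipoprotein, at 2546 and 65.7 CPM, ALB, albumin, at 149 and 2.96 CPM, AFP at 323 and 13.4 CPM, MT1B at 1147 and 55.8 CPM and RBP4, the retinol carrier, at 528 and 36.1 CPM. On the liver list 4 of 5 genes were at least 2 times higher and the list summed to 2493 and 220 CPM. FABP1, a fatty acid binding protein of liver and gut, was 1742 and 126 CPM. MAFA was 1.45 and 20.6 CPM and IAPP, the beta cell peptide amylin, 40.2 and 200 CPM, the opposite direction. FABP1, MAFA and IAPP were all among the 13 markers used here for beta-like cells. Of these 13 markers, 1 was at least 2 times higher in those cells and 6 were at least 2 times lower. MT1B, FABP1 and APOA2 were also among the genes that led the whole MT1B-led finer cluster. That cluster held 5787 of the 10016 MLN UMIs, so these genes are not particular to the cells with at least 10 MLN UMIs. How those cells differ from the rest of that cluster was not tested. Of the 153 cells, 131 also had at least 10 GAST UMIs, 85.6% of them and 0.873% of the cells at that GAST count, while 36.0% of other cells of the same class and library had as many. The part of depth, which differed between those cells and the others, was not tested. Across finer clusters MLN was most like DIO1 (0.84), a deiodinase that activates thyroid hormone, MT1B (0.83) and SLC30A1 (0.78), a zinc exporter.

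Secretin RNA was also highest in beta-like cells. SCT had 36.2 CPM in beta-like cells of the no DOX library and 66.1 CPM in those of the DOX library, followed by 10.2 and 17.7 CPM in alpha-like cells. The MAFA-led finer cluster had 60.05 and 96.3 CPM and the MT1B-led one 25.9 and 43.0 CPM, so that SCT and MLN had opposite orders between these clusters in both libraries. The high level did not hold across all insulin-rich clusters. An unnamed finer cluster led by GHRH, with the highest INS level of the finer clusters (216434 CPM over both libraries), had 10.8 and 16.0 CPM of SCT. After thinning, 14.5% of beta-like cells (14.0006 to 15.1, unthinned 26.3%) had an SCT UMI, against 0.617% of duct-like (0.0748 to 2.21, unthinned 3.02%) and 2.18% of delta-like cells (1.76 to 2.66, unthinned 4.82%).

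SCT was spread over more cells. The cell with the most had 41 UMIs, and the 1000 cells with the most held 52.6% of all SCT UMIs, against 70.0% for MLN. Of 330 cells with at least 10 UMIs, 327 were beta-like, 110 in the no DOX library and 220 in the DOX library. Genes highest in them over other cells of the same class and library were ZG16B (61.0 and 6.20 CPM), SLC22A31 (30.1 and 2.96 CPM), EMID1 (76.8 and 8.96 CPM), MXRA8 (99.1 and 12.2 CPM) and EFNA4 (43.8 and 5.03 CPM). ZG16B was one of the markers of beta-like cells, so it is no independent sign. The genes most like SCT across finer clusters were RP11-881M11.4 (0.89), EGFL7 (0.89) and AHRR (0.88).

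CCK was close to the limit of what these libraries can show. It had 424 UMIs in all, 181 in alpha-like cells (1.52 CPM over both libraries) and 198 in progenitor-like cells (1.4995 CPM), a log2 ratio of 0.02 (-0.28 to 0.32) between them. In duct-like cells it had 0 UMIs, and 0 of 324 thinned cells allows, at a limit of 3 cells, a share of cells with a UMI of up to 0.926% (1.13% by the exact interval), which is above the 0.335% of alpha-like cells (0.221 to 0.487, unthinned 0.796%), so a difference in share was not detectable. Only 123 cells had a CCK UMI. Of these, 8 had at least 10, 5 progenitor-like and 3 alpha-like, and they held 56.4% of the UMIs, the highest count being 56. CCK went with ARHGEF3 (0.73), RXRA (0.72), a nuclear receptor, and C4orf32 (0.70) across finer clusters.

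**Figure D3:**
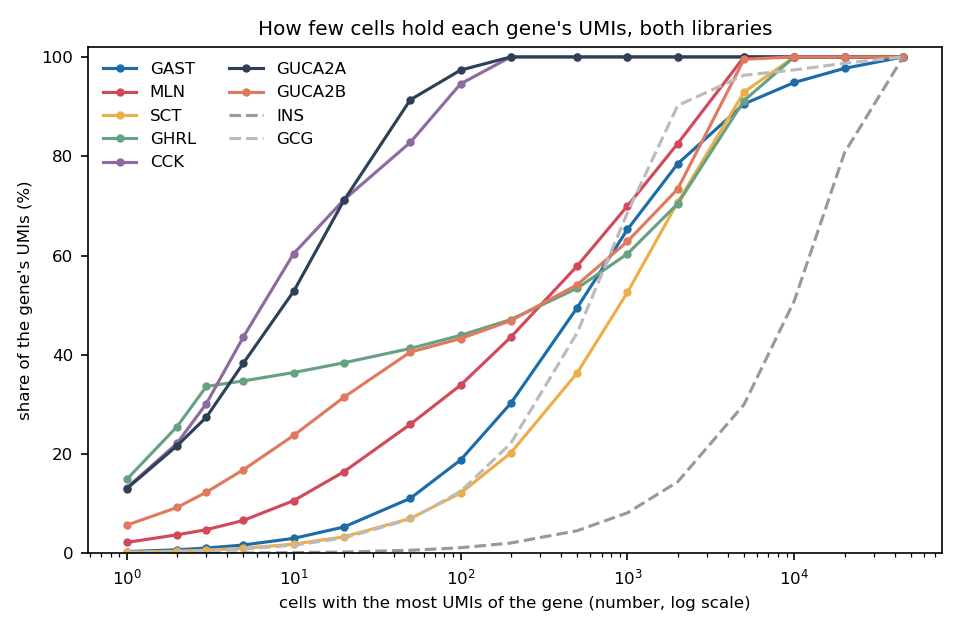
Share of a gene's UMIs (vertical axis, percent) held by the given number of cells with the most UMIs of that gene (horizontal axis, log scale), over both libraries, with solid lines for the 7 genes and dashed lines for INS and GCG. The 3 cells with the most GHRL held 33.6% of it and the 10 with the most GUCA2A 52.8%, while the 500 with the most INS held 4.57% of INS.

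The guanylins were found in duct-like cells. GUCA2A had 261 CPM there in the no DOX library and 416 CPM in the DOX library, and its highest level in any other named class over both libraries was 0.14 CPM, in progenitor-like cells. Duct-like cells held 96.9% of the GUCA2A UMIs of named classes. In thinned cells 20.7% of duct-like cells (16.4 to 25.5, unthinned 27.2%) had a GUCA2A UMI, against 0.019% of beta-like cells (0.0039 to 0.0556, unthinned 0.146%).

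GUCA2B also had its highest level in duct-like cells, 500 CPM in the no DOX library and 1166 CPM in the DOX library, but was not limited to them. Progenitor-like cells had 17.2 and 19.7 CPM and beta-like cells 10.4 and 11.3 CPM, and 42.2% of the UMIs of named classes lay in duct-like cells. After thinning, 7.06% of progenitor-like (6.58 to 7.56, unthinned 14.8%) and 5.13% of beta-like cells (4.80 to 5.49, unthinned 14.1%) had a GUCA2B UMI, above the 2.23% of delta-like cells (1.81 to 2.72, unthinned 5.61%), at median depths of 10252.5, 15890 and 12747 UMIs. The proportion of the guanylins also changed with class. Duct-like cells had 1929 UMIs of GUCA2A and 4822 of GUCA2B, and beta-like cells 24 and 3038. The part of free RNA in the GUCA2B level outside duct-like cells was not tested.

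Within the duct-like class the guanylins lay in the same cells. Of 331 duct-like cells, 78 had UMIs of both, 12 of GUCA2A only, 19 of GUCA2B only and 222 of neither. At 10 UMIs or more there were 40 cells for GUCA2A, all duct-like, and 52 for GUCA2B, 51 of them duct-like. They shared 33 cells, which is 82.5% of the GUCA2A cells and 63.5% of the GUCA2B cells. The highest counts, 260 of GUCA2A and 653 of GUCA2B, were in 1 cell of the no DOX library.

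**Figure D4:**
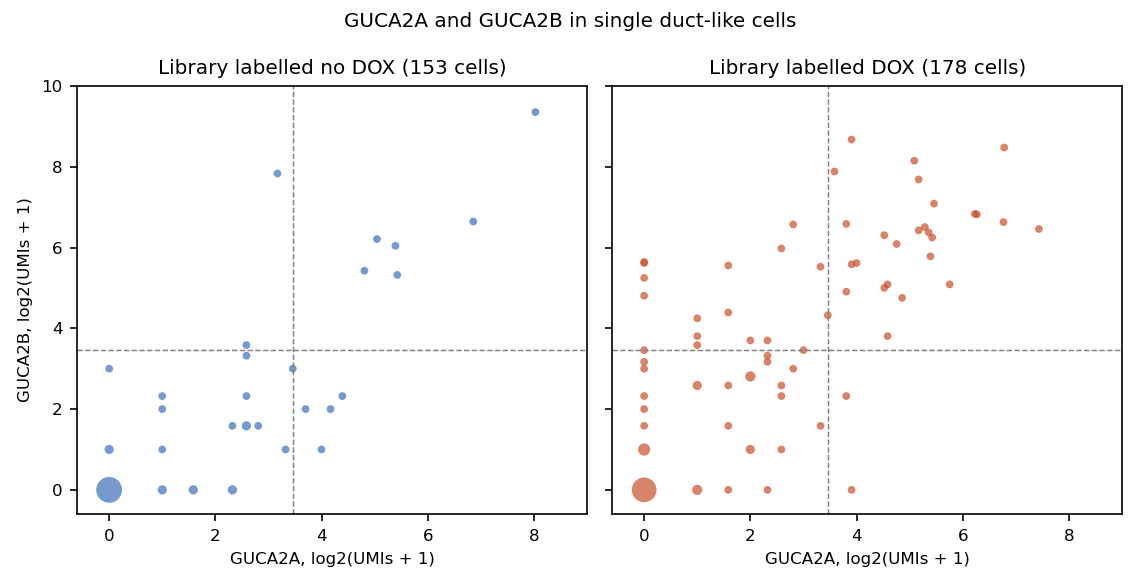
UMIs of GUCA2A (horizontal axis) and GUCA2B (vertical axis), each as log2(UMIs + 1), in single duct-like cells, with the size of a point for the number of cells at that position and 1 panel per library (153 and 178 cells). Most cells sit at or near 0 for both genes, and cells high in both are more numerous in the library labelled DOX.

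The share of duct-like cells that carried guanylins was higher in the DOX library. Cells with at least 10 UMIs of either made up 13 of 153 duct-like cells in the no DOX library (8.50%, 4.60 to 14.1) and 45 of 178 in the DOX library (25.3%, 19.1 to 32.3). Within those cells GUCA2A had 1872 and 1362 CPM and GUCA2B 3802 and 3917 CPM. In the no DOX library 1 of these 13 cells held 260 GUCA2A and 653 GUCA2B UMIs, and without it the whole class there had 160 CPM of GUCA2A, against 261 with it, and 245 CPM of GUCA2B, against 500 with it. No order of the levels within these cells is therefore read between the libraries. In the remaining duct-like cells GUCA2A had 25.3 and 31.3 CPM and GUCA2B 17.6 and 47.5 CPM. The cells with guanylins were deeper, with medians of 22438 and 18967 UMIs against 13670 and 14311 UMIs, and the part of depth was not tested. In the whole duct-like class the summed intestinal markers were 124 CPM in the no DOX library and 432 CPM in the DOX library, and the stomach markers 37.9 and 114 CPM, and their part in the higher share was not tested.

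Genes among the highest in cells with at least 10 UMIs of a guanylin, over other cells of the same class and library, included CA4, a carbonic anhydrase (71.6 and 5.90 CPM for GUCA2A, 70.4 and 2.26 CPM for GUCA2B), and CCL20, a chemokine of epithelia (64.6 and 1.89 CPM, 54.4 and 1.57 CPM). KRT40 was among them for both guanylins, TNNC1 for GUCA2A and S100P for GUCA2B. In cells with at least 10 UMIs of either, against other duct-like cells, SOX9 was 328 against 242 CPM in the no DOX library and 352 against 254 CPM in the DOX library, log2 ratios of 0.44 (0.13 to 0.74) and 0.47 (0.26 to 0.67).

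The cells with at least 10 GUCA2B UMIs differed from other cells of the same class and library in the markers of duct-like cells as well, 51 of the 52 being duct-like and 1 progenitor-like. Of 12 duct-like markers 7 were at least 2 times lower and none that much higher, with TM4SF1 at 97.8 and 736 CPM, VIM, vimentin, at 85.1 and 617 CPM and TTYH1 at 46.6 and 410 CPM. Among markers of intestinal epithelium OLFM4 was 580 and 201 CPM, CDX2, the regulator of intestinal identity, was 5.73 and 3.93 CPM, and CDH17 and KRT20 had no UMI in any duct-like cell. Of 7 stomach markers 3 were at least 2 times higher, with TFF1 at 45.3 and 21.3 CPM and MUC5AC at 0 in both. The class was found by clustering on highly variable genes without the 7 genes, and it was named by these duct-like markers, so these values are a description.

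Across the finer clusters GUCA2A and GUCA2B had a Pearson correlation of 0.95 with each other. GUCA2A was most like SCGB1A1 (1.00), SPARC (1.00) and IFI44L (1.00), and GUCA2B most like CCDC60 (0.98), RHOV (0.97) and NFE2L3 (0.97). In the finer clusters GUCA2A reached 345 CPM in duct-like cells and 0.65 CPM in the next cluster, so its correlations rest on the duct-like points.

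Between the libraries, over all cells kept, 4 of the 7 genes had a lower level in the DOX library and 3 a higher one. GAST went from 7945 CPM in the no DOX library to 3310 CPM in the DOX library, a log2 ratio of -1.26 (-1.27 to -1.26). SCT went from 18.2 to 38.7 CPM, a log2 ratio of 1.09 (1.05 to 1.14). These are the only ones past a log2 ratio of 1 in size among the 5 genes with at least 5 CPM in a library. Of 10444 genes at that level, 3 were that much higher in the DOX library (0.0287%) and 10 that much lower (0.0957%), with a median log2 ratio of -0.0068 over all of them. Ratios of that size were thus rare in these libraries. But the genes were selected with such values in view, so nothing is read from the count. With every named class weighted equally GAST was -0.88 and SCT 0.90, neither of them past a log2 ratio of 1 in size.

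The remaining log2 ratios were -0.82 (-0.88 to -0.76) for MLN, from 20.6 to 11.6 CPM, and -0.71 (-0.76 to -0.66) for GHRL, from 28.8 to 17.6 CPM. CCK, at 0.72 and 0.65 CPM, had a ratio of -0.16 (-0.45 to 0.12), an interval that includes 0. GUCA2A went from 2.17 to 4.31 CPM, a ratio of 0.99 (0.85 to 1.12), and GUCA2B from 13.98 to 23.3 CPM, a ratio of 0.73 (0.68 to 0.79).

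**Figure D5:**
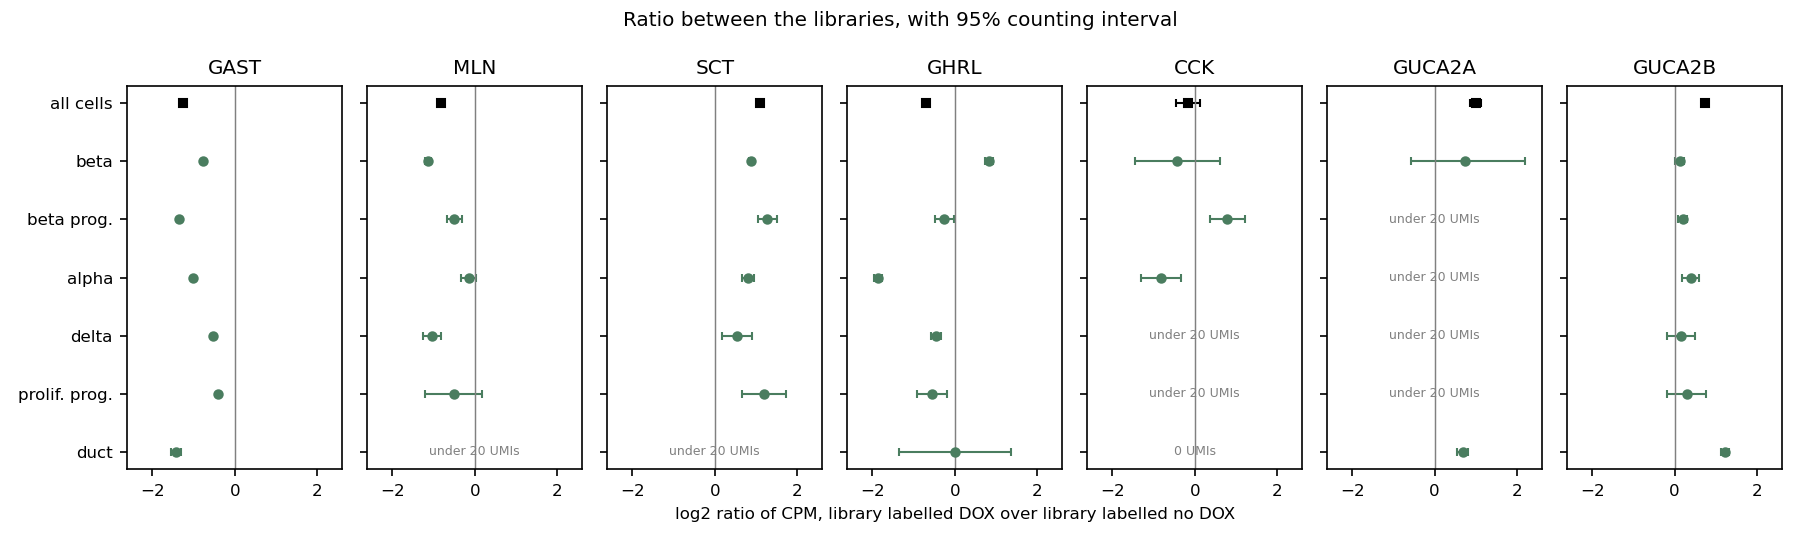
Log2 ratio between the libraries, DOX over no DOX (horizontal axis), for each gene over all cells and in each named class, with 95% counting intervals. GAST lies left of 0 and SCT right of 0 in every class drawn, while GHRL and CCK have classes on both sides. Classes with few UMIs of a gene have no point, among them SCT in duct-like cells (5 and 13 UMIs).

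Within the classes GAST and SCT kept their directions. GAST had a lower level in the DOX library in all 6 named classes, with log2 ratios from -1.42 in duct-like to -0.40 in proliferating progenitor-like cells and -1.01 in alpha-like cells. The part of free GAST RNA in the values outside the alpha-like and proliferating classes was not tested. SCT had a higher level in all 6, from 0.53 in delta-like to 1.27 in progenitor-like cells and 0.87 in beta-like cells. In duct-like cells, with 5 and 13 UMIs, the SCT value of 1.11 had an interval that includes 0 (-0.47 to 2.95) and was 0.23 without 1 cell. SCT stood there at 10.9% and 11.0006% of its level over all cells, beside 13.2% and 10.4% for INS, and the part of free RNA was not tested for SCT either. MLN was -1.13 in beta-like and -1.03 in delta-like cells, and -0.15 in alpha-like cells with an interval that includes 0 (-0.33 to 0.03).

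For CCK, and for GHRL in beta-like cells, the ratios rested on single cells, and for GHRL in alpha-like cells on 18 cells. GHRL was -1.86 in alpha-like cells and 0.82 in beta-like cells. Without the beta-like cell with 1532 UMIs the beta-like value was -0.22 (-0.32 to -0.11), and without the alpha-like cell with 2153 UMIs the alpha-like value was -1.14. Leaving out all cells with at least 10 GHRL UMIs gave -0.26 in alpha-like cells and -0.17 in beta-like cells. CCK was -0.81 in alpha-like and 0.79 in progenitor-like cells, and -0.29 and -0.12 without the cell with the most CCK in each class. Leaving out all cells with at least 10 CCK UMIs turned both signs, to 0.31 in alpha-like cells (-0.25 to 0.87) and -2.32 in progenitor-like cells (-4.31 to -0.77, with 23 and 4 UMIs left).

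The guanylin ratios also depended on few cells. In duct-like cells GUCA2A was 0.67 (0.54 to 0.81) and GUCA2B 1.22 (1.13 to 1.32). Without the no DOX cell with 260 and 653 UMIs they were 1.38 and 2.25. Without every cell with at least 10 UMIs of the gene they were 0.52 and 1.01, so that the direction was the same in each case. The DOX library had the higher duct-like level of both genes in each of these settings.

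The receptors and enzymes that gut peptides need were measured from lists. Of 6 receptors 3 had at least 5 CPM in a library, and none of these was past a log2 ratio of 1 between the libraries. GUCY2C, the guanylin receptor, was highest in progenitor-like cells, at 87.4 CPM over both libraries. That is not the class in which its ligands were highest, and it is the class with the second highest level of GUCA2B. SCTR, the secretin receptor, was highest in duct-like cells at 30.1 CPM. CCKBR, the receptor of gastrin and cholecystokinin, had 10.7 CPM in each library with 21.0 CPM in alpha-like cells, close to the 21.9 CPM of proliferating progenitor-like cells. CCKAR had 6 UMIs and MLNR 1, and GHSR, the ghrelin receptor, had 0 UMIs, which at a limit of 3 UMIs allows up to 0.004846 CPM over all cells.

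Of 9 processing enzymes 7 had at least 5 CPM in a library, and none passed a log2 ratio of 1. PCSK1, a convertase that cuts prohormones, was highest in progenitor-like cells at 714 CPM, and CPE, which trims the cut ends, in alpha-like cells at 1611 CPM. In the alpha-like groups PCSK1 was 25.1 CPM in cells rich in GAST only, 13.3 CPM in cells rich in GCG only and 22.2 CPM in cells rich in neither, and PCSK2, the convertase of glucagon, was 302, 313 and 233 CPM. MBOAT4 had 0.15 and 0.05 CPM over all cells of the libraries.

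Among 13 other gut and islet hormones 8 had at least 5 CPM in a library and none passed a log2 ratio of 1. PPY was closest, from 43.1 to 77.9 CPM, a log2 ratio of 0.85. GCG, which shares the alpha-like class with GAST, was 4530 and 4634 CPM, a log2 ratio of 0.03, and GIP was 21.7 and 21.6 CPM. Of 17 transcription factors of enteroendocrine and islet cells 16 had at least 5 CPM and none passed, with ETV1 at -0.37 and HHEX at -0.63. ETV1 was highest in alpha-like cells at 350 CPM, and FEV in progenitor-like cells at 1648 CPM.

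Markers of the organs that normally make these peptides were also measured. Of 8 intestinal genes 7 were in the files. They summed to between 123 and 292 CPM in the named classes over both libraries. In duct-like cells they summed to 124 CPM in the no DOX library, the lowest of the named classes there, and to 432 CPM in the DOX library, the highest there. OLFM4 made up 217 CPM of the duct-like sum over both libraries, and FABP2, CDH17 and KRT20 were at 0. In alpha-like cells CDX2 was 0.39 CPM, CDH17 was 0.14 CPM, KRT20 was 7.37 CPM and VIL1 was 120 CPM. CDX2 and CDH17 were highest in progenitor-like cells, at 16.1 and 8.99 CPM. VIL1 made up most of the intestinal sum in every named class but the duct-like one. It was 133 CPM in beta-like, 204 CPM in progenitor-like and 70.9 CPM in duct-like cells. The 7 stomach genes summed to 79.3 CPM in duct-like and 66.7 CPM in alpha-like cells and to between 7.07 and 31.8 CPM in the other named classes, with MUC5AC and GKN1 at 0 in duct-like cells. CLDN18 alone made up 64.9 CPM of the alpha-like sum. The order of these classes differed between the libraries, with 37.9 CPM in duct-like and 83.1 CPM in alpha-like cells of the no DOX library and 114 and 45.3 CPM in those of the DOX library. A list of 5 genes of enterochromaffin cells, a kind of enteroendocrine cell, summed to 3280 CPM in progenitor-like cells over both libraries. In the other named classes it summed to between 119 and 863 CPM. TPH1, at 2064 CPM, made up most of the progenitor-like sum. TPH1, DDC and SLC18A1 of this list were also markers used here to name progenitor-like cells, so they are no independent sign. The part of such cells in the levels above was not tested.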

How the data were processed

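The authors deposited raw UMI counts for every gene in every barcode, 1 matrix per library. The file headers name Cell Ranger 3.0.2, and the submitters' processing notes name Cell Ranger 3.0, kallisto, bustools 0.40.0, Scanpy, Seurat and GRCh38. The annotation behind these counts is not given in the sources used here, and positions were taken from GENCODE by Ensembl identifier. The depth was 550240855 UMIs in 30288 barcodes (no DOX) and 520849221 UMIs in 31817 barcodes (DOX).

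Barcodes under 1000 UMIs were dropped. Scrublet, run per library in scanpy 1.11.5, removed 7898 and 8340 doublets (26.6% and 26.5%), a large step. The clustering took these steps from the study's methods: log normalization, highly variable genes, regression on total UMIs and on the mitochondrial share, 50 principal components, a neighbour graph balanced over the libraries, and Leiden clustering (here leidenalg 0.10.2) at resolution 0.2, and 0.5 for finer clusters. Scaling to 10000 per cell, 3 neighbours per library and leaving the 7 genes out were choices made here, and the study clustered counts from kallisto and bustools, while the Cell Ranger counts were used here. A cluster was named where the markers of a class rose by a mean log2 of 1 or more, with 3 or more raised and a marker among the leading genes.

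A level is the sum of UMIs over cells per 1000000 UMIs, with exact Poisson intervals. Intervals of shares are exact (Clopper-Pearson) and those of ratios exact given the sum of both counts (binomial), from scipy 1.17.1. Where a count was 0, the limit given is 3 counts of the total. The intervals of levels and ratios cover counting error of UMIs and those of shares treat cells as independent draws. None covers PCR or the spread between cultures. With 1 library per condition there was no test. The scripts were tested on simulated data. Genes other than the members, SOX9, INS and the listed genes were named by a rule: the 3 most correlated genes per member, and the 5 genes with the largest ratio in cells with at least 10 UMIs of a member, where there were at least 20 such cells. The members and lists were chosen with earlier results of these data known. The division of alpha-like cells at 1% of UMIs, and the ratios without the cell with the most UMIs or without cells of 10 or more, were added after the values were seen. Protein sequences were not used here, and some genes that the rule names are not reported here.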

Additional observations from a re-analysis of the deposited data

Results flagged for a closer look

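GHRL moved in opposite directions between the libraries in different classes. The log2 ratio, DOX library over no DOX library, was -1.86 in alpha-like cells and 0.82 in beta-like cells. With 1 library per condition the difference between the classes was not tested. The beta-like value was -0.22 without a single cell of 1532 GHRL UMIs, so the opposite direction rested on that cell.

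CCK had a log2 ratio of -0.81 in alpha-like cells and 0.79 in beta cell progenitor-like cells, and this difference was not tested either. Without the cell with the most CCK UMIs in each class the values were -0.29 (-0.80 to 0.21) and -0.12 (-0.63 to 0.37), with intervals that include 0.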

How the results depend on the processing

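Over all cells the log2 ratio between the libraries was recomputed under 8 planned settings and the pair added after the values were seen. The setting with no minimum of UMIs also called the doublets anew, so it changed both steps. GAST, at -1.26, was -1.27 with no minimum of UMIs, -1.17 with doublets kept, -1.28 without the barcodes found in both libraries, -0.88 with every named class weighted equally and -1.26 when scaled to the median ratio of all genes. Without its top cell it was -1.26, and without cells of 10 or more GAST UMIs -0.74. SCT, at 1.09, was 0.90 with classes weighted equally and 1.14 without cells of 10 or more SCT UMIs. With no minimum of UMIs, 2 genes of at least 5 CPM in a library, and GUCA2A below that level, were past a log2 ratio of 1 on the higher side, and with classes weighted equally, or without cells of 10 or more UMIs, 0 were on the lower side. CCK changed sign, to 1.23 with doublets kept and 0.0480 with classes weighted equally. GHRL ranged from -0.997 to -0.32, GUCA2A from 0.67 to 2.70, GUCA2B from 0.59 to 1.18 and MLN from -0.86 to -0.74 over the planned settings. Without the top cell of each gene, and without its cells of 10 or more UMIs, MLN was -0.77 and -0.44, GHRL -0.32 and -0.35, CCK -0.65 and -0.30, GUCA2A 1.68 and 0.71, and GUCA2B 0.97 and 0.23. The cause of these changes was not tested.

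The highest class was kept by 5 to 7 of the 7 genes. It moved for CCK, for MLN at resolution 0.5 (to delta-like, where the MT1B-led cluster was unnamed) and for GHRL in the DOX library alone (to delta-like). Cells with at least 10 UMIs became 47 for MLN and 108 for SCT when defined as at least 1000 CPM and 3 UMIs, and 215 and 538 with doublets kept. No paired analysis was possible because each condition was 1 library without a replicate number. The CCK values rest on 424 UMIs and those of duct-like cells on 331 cells.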
